A study of Homo sapiens with 12 samples.

Results

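The genes described here are the nuclear genes for complexes II to V of mitochondrial oxidative phosphorylation, measured by RNA sequencing in K562 cells, a human leukemia line with erythroid features. The cells received the solvent DMSO (3 libraries) or FT671, an inhibitor of the deubiquitinase USP7, at 10 µM (3 libraries), and the treatment lasted 48 h. Both groups are the same line without a labelled genetic change, and the study also holds chromatin samples that were not analysed here. Members were the protein-coding genes of GENCODE release 44 whose symbols start with SDHA, SDHB, SDHC, SDHD, SDHAF, UQC, ATP5 or COX followed by a digit, together with CYC1 and CYCS. The rule used names and no measured value. It gave 71 of the 60609 genes in the files, namely 8 of complex II, 16 of complex III, the gene for cytochrome c, 26 of complex IV and 20 of complex V. Of these, 63 passed the filter on low counts and were tested.

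The complexes form the respiratory chain of the inner mitochondrial membrane. Complex II (succinate dehydrogenase) passes electrons from succinate to ubiquinone, complex III passes them on to cytochrome c, complex IV (cytochrome c oxidase) passes them to oxygen, and complex V (ATP synthase) makes ATP from the proton gradient. Complex II is encoded in the nucleus alone, whereas complexes III, IV and V each combine nuclear subunits with a few subunits encoded by mitochondrial DNA. Assembly factors are proteins that insert cofactors or help subunits to join, and they are not part of the finished enzyme.

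Total counts per library ranged from 4555220 to 14250500, so that 3 counts, the smallest level regarded as detectable, corresponded to 0.207 to 0.664 CPM, the counts of a gene scaled to the size of its library. The spread between replicates of 1 group exceeded counting error (chi-square divided by its degrees of freedom, 2.07 to 8.73), and the 2 highest values belonged to pairs with DMSO replicate 3. P-values measure the spread between these libraries, which the study's text describes as independent experiments. In bulk RNA, fewer cells of a type and less RNA per cell cannot be told apart. Of 11 markers of the K562 line, 10 passed the filter, with HBG1, HBG2 and HBZ higher and 6 others, such as GATA1, lower after FT671. The summed level of the 11 was 1287 to 1322 CPM in DMSO and 1149 to 1187 CPM after FT671. Of 11 markers of other blood, stromal or epithelial cells, 5 passed the filter, MS4A1 and CDH5 were at 0 in every library, and the sum moved from 104 CPM in each DMSO library to between 134 and 137 CPM. EPCAM and CD3D were the 2 of them that rose. The part of these shifts in the results was not tested.

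Nuclear genes for complexes II to V were mostly higher after FT671. Of the 63 tested members, 41 rose (65.1%), 2 fell and 20 did not pass an adjusted p-value of 0.05 (edgeR's quasi-likelihood test, Benjamini-Hochberg adjustment over 13895 genes). Over all genes tested, 23.6% were higher and 26.5% were lower at that threshold, and the median log2 fold change was −0.01 against 0.41 for the members. The 41 that rose did so by 0.23 to 1.04 on the log2 scale, with a median of 0.58, or 1.17-fold to 2.06-fold. At the stricter threshold of 1e-05, which the study's methods use, 2 members were higher (UQCC2 and COX7C) and none was lower, where all genes gave 1.79% higher and 4.13% lower. DESeq2's Wald test at the same threshold called 21 members higher (6.33% of all genes) and 0 lower (8.44%), 19 of the 21 being subunits. At an unadjusted p-value under 0.05, edgeR called 3 members lower. Every FT671 library lay above every DMSO library in 42 members and below in 3, whereas this held for 26.8% and 30.3% of all genes tested. Positive log2 fold changes were found for 54 members and negative ones for 9.

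Summed over all 71 members, expression was 8773, 8933 and 7727 CPM in DMSO replicates 1 to 3 and 11670, 11480 and 11380 CPM in the FT671 libraries. The groups did not overlap, and the ratio of the means was 1.36. DMSO replicate 3 was the lowest of the controls. In it, 17 of the 63 tested members lay above their DMSO mean, compared with 41 in each of the other controls, and the member median was −0.15 (log2, relative to the DMSO mean) against 0.07 in both. The 3 FT671 libraries were close to each other, with medians of 0.43, 0.41 and 0.43. Without DMSO replicate 3, the count that rose was 41, but 4 members fell in place of 2, UQCC3 and UQCRFS1 being the additional ones. That fit tested 65 members, and over all 14909 genes it called 3830 higher and 4100 lower. Without FT671 replicate 3, 1 member fell, SDHAF2.

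**Figure D1:**
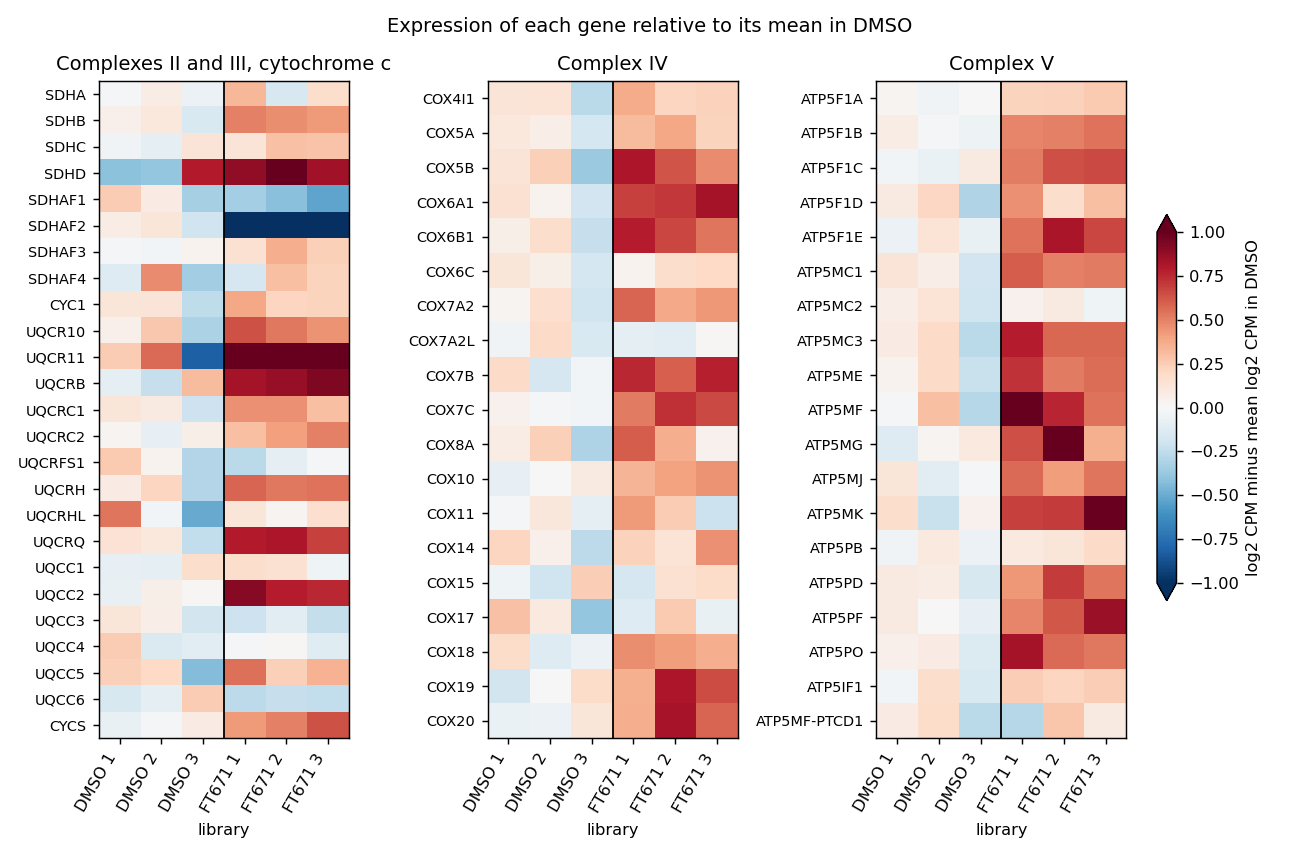
Expression of the 63 tested genes (rows) in the 6 libraries (columns), as log2 CPM minus the gene's mean log2 CPM in DMSO, with red for higher and blue for lower and colors saturated at ±1. Within each complex, subunits come first and assembly factors last; the 3 FT671 libraries have medians of 0.43, 0.41 and 0.43, DMSO replicate 3 is paler or bluer than the other controls (median −0.15), and SDHAF2 stands out in blue.

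Subunit genes and assembly factor genes were counted apart. Among 42 tested subunits, 34 rose and none fell, with a median log2 fold change of 0.52. EdgeR called 0 subunits lower also at an unadjusted p-value under 0.05, and so did DESeq2's Wald test at an adjusted p-value of 0.05. Among 18 tested assembly factors, 5 rose (UQCC2, COX10, COX18, COX19 and COX20), 2 fell (SDHAF1 and SDHAF2) and 11 did not pass, with a median of 0.11. Their 27.8% higher is near the 23.6% over all genes tested, and their 11.1% lower stands beside 26.5%. That median was 0.22 without DMSO replicate 2, 0.19 without FT671 replicate 1 and 0.07 without FT671 replicate 2, while the subunit median lay between 0.45 and 0.58 whichever library was left out. Subunit transcripts were also more abundant, with a median over genes of 132 CPM in DMSO against 20.2 CPM for the assembly factors, and their median SE was smaller (0.095 against 0.14 on the log2 scale). The part of abundance in the counts of calls was not tested, and the difference between the roles is a description without a test.

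**Figure D2:**
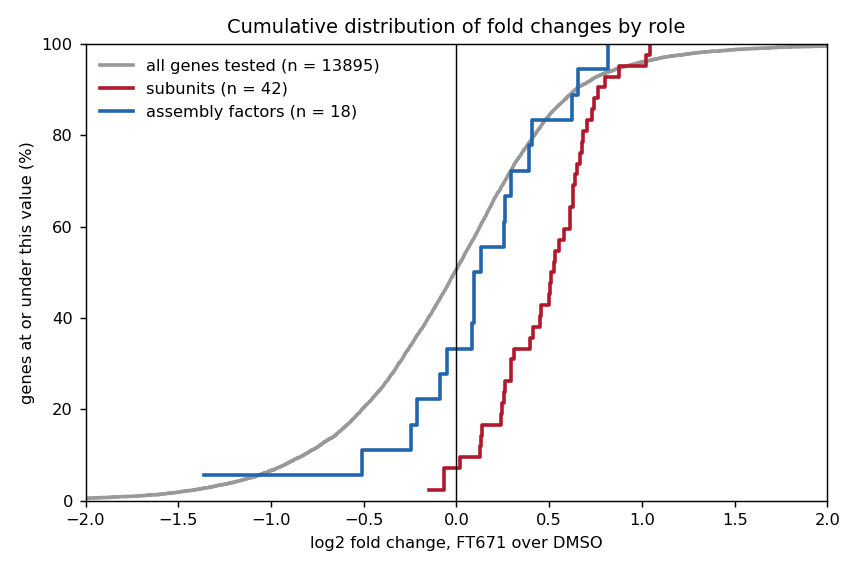
Cumulative share of genes (y axis, %) at or under a given log2 fold change of FT671 over DMSO (x axis) for all 13895 genes tested (gray), the 42 subunits (red) and the 18 assembly factors (blue). The subunit curve lies to the right of 0 for most of its length (median 0.52), whereas the assembly factors have a median of 0.11 and reach down to −1.36.

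By complex, the median log2 fold change was 0.19 in complex II, 0.34 in complex III, 0.39 in complex IV and 0.55 in complex V. Genes called higher were 3 of 8 (37.5%), 9 of 16 (56.25%), 12 of 19 (63.2%) and 16 of 19 (84.2%), beside 23.6% of all genes tested. The complexes differ in their mix of roles. Tested assembly factors numbered 4 in complex II, 6 in complex III and 8 in complex IV, and the rule named none of complex V. For subunits alone, the medians were 0.35, 0.45, 0.45 and 0.58, and the shares called higher 75%, 80%, 72.7% and 88.2%. In complex II, 2 of 8 genes were lower (25%), near the 26.5% of all genes tested, and none was lower in the others. Without DMSO replicate 3, the median of complex III was 0.22. Summed CPM rose from 338 ± 13.8 to 427 ± 7.27 for complex II, from 1629 ± 115 to 2250 ± 28.2 for complex III, from 2377 ± 261 to 3188 ± 116 for complex IV and from 4015 ± 271 to 5475 ± 26.3 for complex V (SD, n = 3). The groups overlapped in none of these 4 sums, for which an exact permutation test of 3 against 3 libraries cannot give a two-sided p-value below 0.1.

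**Figure D3:**
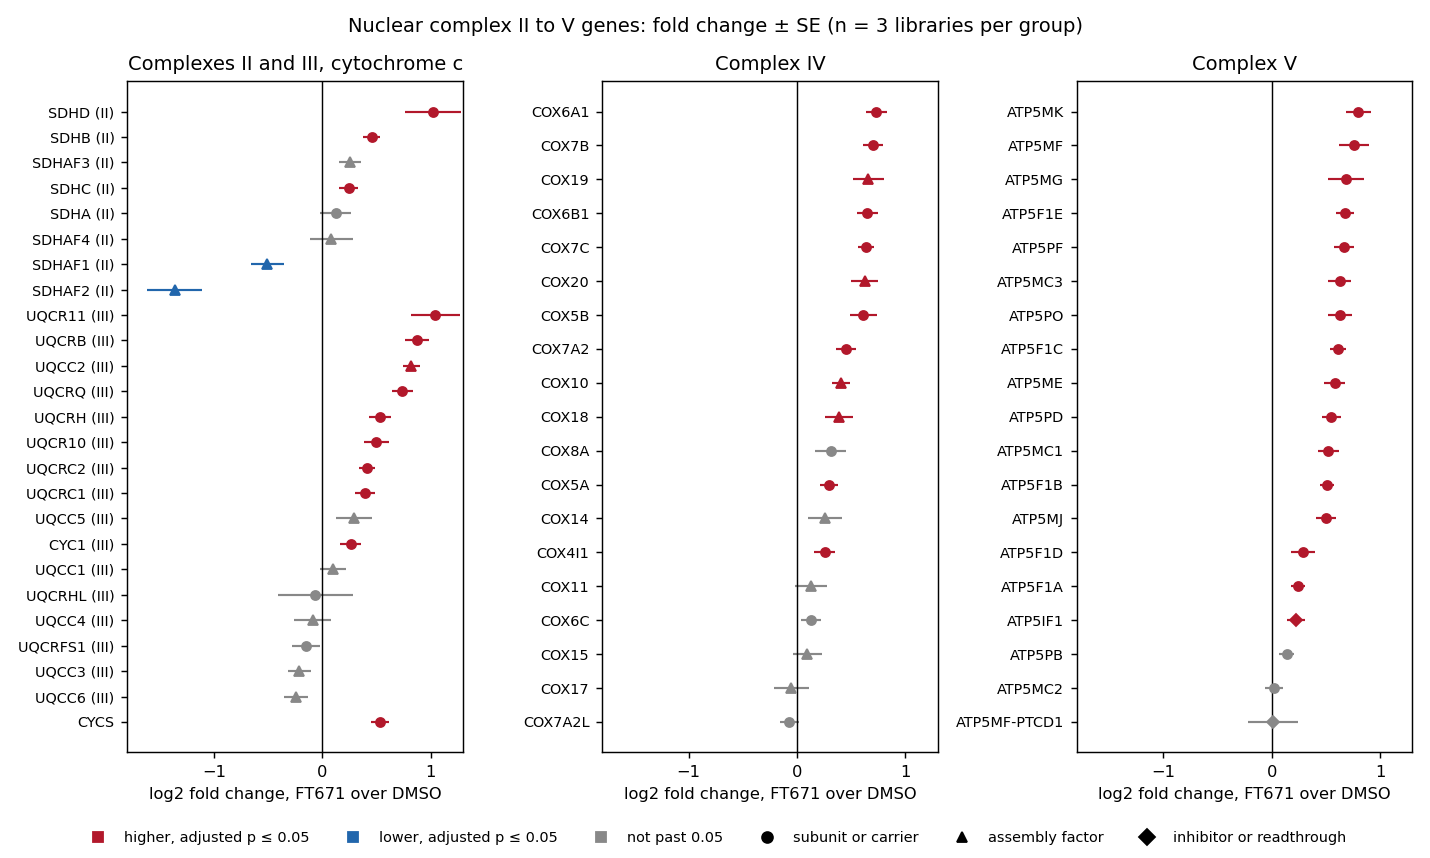
Log2 fold change of FT671 over DMSO (x axis) with its SE for each of the 63 tested genes, grouped by complex and ordered by size, from 3 libraries per group. Red marks genes higher and blue genes lower at an adjusted p-value of 0.05; complex V has 16 of 19 genes in red, and the 2 blue genes, SDHAF1 and SDHAF2, are assembly factors of complex II.

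Nuclear respiratory chain genes are known for promoter sites of a small group of factors, among them NRF1, the ETS factor GABP, YY1 and the estrogen-related receptors (ERR). Promoter windows from RefSeq (GRCh38.p14, 250 bases before to 50 bases after the start) were found for 51 of the 63 tested members. Both strands were searched for CGCATGCG (NRF1 core), CCGGAAG (ETS), AAGATGGCG (YY1) and AAGGTCA (ERR site). The NRF1 core reads the same on both strands, ETS letters on opposite strands can share CCGG, as in ATP5MK, and ETS and YY1 letters can share AAG. The NRF1 core stood in 8 of the 51 windows (15.7%), compared with 4.07% of 9151 windows of tested protein-coding genes and 2.19% of all 27305 windows. ETS letters stood in 20 (39.2%, compared with 20.9% and 10.7%), YY1 letters in 5 (9.80%, compared with 4.35% and 1.85%) and ERR letters in 6 (11.8%, compared with 2.34% and 3.97%). At least 1 of the 4 was present in 26 windows (51.0%, compared with 28.6% of tested coding genes). A match of letters is a description and not a measured site.

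The NRF1 cores are shown because they sit in genes that rose and in genes that did not. Each line gives 30 bases on the gene's own strand with the core in capitals. All lie before the RefSeq start of their window. This start can differ from the GENCODE bounds of the gene, and some cores, such as those of ATP5MC2 and ATP5PF, lie inside these bounds.
SDHD (chr11:112086753-112086782, plus strand): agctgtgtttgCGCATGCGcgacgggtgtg
COX18 (chr4:73069744-73069773, minus strand): gcaggcaggcgCGCATGCGctttatgcccg
COX6A1 (chr12:120437883-120437912, plus strand): cggagggcacaCGCATGCGcacgaaggaaa
ATP5F1C (chr10:7788145-7788174, plus strand): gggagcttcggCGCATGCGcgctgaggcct
ATP5ME (chr4:674335-674364, minus strand): gccgctgacggCGCATGCGtgcgcccagct
ATP5PF (chr21:25735155-25735184, minus strand): cactcaaagagCGCATGCGtacagagcaag
COX17 (chr3:119677503-119677532, minus strand): gggcctccttgCGCATGCGctgaagggggc
ATP5MC2 (chr12:53676106-53676135, minus strand): ggcccgggtcaCGCATGCGctgagccttcc

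The first 6 of these genes rose, by 0.39 (COX18) to 1.02 (SDHD) on the log2 scale, and the last pair, COX17 (−0.05) and ATP5MC2 (0.02), did not pass the test. Their cores began between 219 bases (COX6A1) and 21 bases (ATP5F1C) before the RefSeq start. Of the 34 genes that rose and had a window, 6 held the core, and of the other 17 windows 2 held it.

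The promoter of SDHB is shown as an example with an ERR site and an ETS site together, and those of COX5B and COX6B1 for ETS sites close to the start. Each run is the 250 bases before the RefSeq start on the gene's strand, with matches in capitals, and all 3 genes rose. ETS letters were not limited to such genes. They stood in 15 of the 34 windows of genes that rose and in 5 of the other 17, among them that of SDHAF2, which fell. COX5B has another match that begins 5 bases before the start and runs past the end of the window, so that its first letters alone are shown, and the match in COX6B1 reads on the opposite strand.
SDHB (chr1:17054033-17054282, minus strand): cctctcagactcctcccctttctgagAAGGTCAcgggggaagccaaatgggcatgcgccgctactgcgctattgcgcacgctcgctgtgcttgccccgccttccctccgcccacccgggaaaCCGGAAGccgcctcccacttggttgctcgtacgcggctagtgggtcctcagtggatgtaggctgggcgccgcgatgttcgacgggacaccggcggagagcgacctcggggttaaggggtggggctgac
COX5B (chr2:97645812-97646061, plus strand): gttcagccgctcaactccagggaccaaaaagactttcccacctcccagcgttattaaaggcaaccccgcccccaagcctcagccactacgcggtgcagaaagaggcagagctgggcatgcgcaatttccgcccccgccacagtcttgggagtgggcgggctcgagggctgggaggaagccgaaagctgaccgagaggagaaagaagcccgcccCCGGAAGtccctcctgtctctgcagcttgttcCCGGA
COX6B1 (chr19:35648073-35648322, plus strand): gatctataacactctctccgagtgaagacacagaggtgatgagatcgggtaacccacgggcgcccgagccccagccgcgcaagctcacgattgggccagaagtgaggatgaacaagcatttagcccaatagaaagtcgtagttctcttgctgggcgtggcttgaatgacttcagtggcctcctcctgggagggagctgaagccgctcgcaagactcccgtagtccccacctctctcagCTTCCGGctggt

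In complex II, the subunit genes SDHB, SDHC and SDHD rose and the assembly factor genes SDHAF1 and SDHAF2 fell. SDHB encodes the iron-sulfur subunit. Its expression was 190, 197 and 165 CPM in DMSO and 261, 254 and 247 CPM after FT671, without overlap (log2 fold change 0.46 ± 0.08 SE, adjusted p = 2.67e-04, edgeR). SDHC and SDHD encode the membrane anchors that bind ubiquinone. SDHC rose by a small amount, from 66.4, 63.5 and 74.3 CPM to 74.4, 83.1 and 82.7 CPM (0.25 ± 0.09, adjusted p = 0.0322, edgeR), DMSO replicate 3 almost touched the lowest FT671 library, and the call was lost without 4 of the 6 libraries in turn. SDHD (ENSG00000204370, chromosome 11, 112086824 to 112120016 in hg38, plus strand) had 6.28, 6.39 and 14.7 CPM in DMSO and 15.7, 19.96 and 15.2 CPM after FT671 (1.02 ± 0.26, adjusted p = 0.00446, edgeR). The highest control of SDHD thus lay just under the lowest treated library, and the log2 fold change ranged from 0.78 to 1.40 over the alternatives. SDHA encodes the flavoprotein subunit. Its 13.5, 14.4 and 13.1 CPM in DMSO and 17.3, 12.2 and 15.5 CPM after FT671 overlapped (0.12 ± 0.14, adjusted p = 0.490, edgeR). Pseudogenes named after SDHA held 361 counts over the 6 libraries beside 745 of SDHA itself, so reads may have been split between them and the level of SDHA is uncertain.

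SDHAF2, the factor that helps to attach the flavin to SDHA, had the largest fall of any member. It was at 4.49, 4.66 and 3.68 CPM in DMSO and at 1.55, 1.80 and 1.69 CPM after FT671 (−1.36 ± 0.25, adjusted p = 4.99e-04, edgeR), a separation wider than the spread within either group. The gene (ENSG00000167985, chromosome 11, 61430042 to 61446733, plus strand) shares 44.8% of its exon bases with ENSG00000256591, a gene of the same strand that had a log2 fold change of 1.04 (adjusted p = 0.0508, edgeR), and reads in the shared exons cannot be assigned to 1 of them by the counts. SDHAF1, which acts in the maturation of SDHB, was at 22.5, 19.9 and 14.9 CPM in DMSO and 14.8, 14.0 and 13.0 CPM after FT671 (−0.51 ± 0.15, adjusted p = 0.0128, edgeR). DMSO replicate 3 was barely above the treated libraries, and the call was lost after thinning, without DMSO replicate 1 and without FT671 replicate 3. SDHAF3 did not pass at 0.26 (adjusted p = 0.0508, edgeR), but its libraries did not overlap (26.9, 26.7 and 27.8 CPM in DMSO, 30.1, 34.9 and 31.98 CPM after FT671), and it was called higher in 6 alternatives, such as DESeq2's size factors and the fit without DMSO replicate 3. SDHAF4 (0.08) did not pass.

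Of the 10 tested subunit genes of complex III, the UQCRH copy UQCRHL included, 8 rose and the median log2 fold change was 0.45. Of its 6 assembly factors, 1 rose (16.7%, beside 23.6% of all genes tested), and their median was 0.0028. CYC1, the gene for cytochrome c1, was at 259, 261 and 201 CPM in DMSO and 311, 278 and 279 CPM after FT671 (0.26 ± 0.10, adjusted p = 0.0356, edgeR). This was among the weaker calls, lost without DMSO replicate 3 and without each of the FT671 libraries in turn. It was also lost with library totals alone and with the gene length correction. The core genes UQCRC1 and UQCRC2 rose by 0.39 and 0.41. UQCRC2 had 251, 233 and 257 CPM in DMSO and 304, 328 and 350 CPM after FT671, without overlap. Of the 4 largest rises in complex III, 3 were those of small subunits and 1 that of the assembly factor UQCC2. UQCRB, a subunit near the ubiquinone site, went from 128, 116 and 170 CPM to 243, 250 and 261 CPM (0.88 ± 0.11, adjusted p = 2.19e-05, edgeR). UQCRQ went from 119.5, 116 and 91.4 CPM to 188, 189.5 and 174 CPM (0.74 ± 0.10, adjusted p = 2.45e-05, edgeR). UQCR11 had the largest rise of all members at 1.04 ± 0.23 (adjusted p = 0.00163, edgeR), from a low level of 7.59, 9.49 and 3.50 CPM to 17.3, 14.9 and 13.9 CPM. UQCR10 rose by 0.50 and UQCRH by 0.53. UQCR10 shares 24.5% of its exon bases with ENSG00000287967 on the opposite strand, which also rose by 0.50 (adjusted p = 0.00880, edgeR). In contrast, UQCRFS1, which encodes the Rieske iron-sulfur protein, was at 61.0, 52.1 and 41.6 CPM in DMSO and 42.3, 47.7 and 50.4 CPM after FT671 (−0.15 ± 0.13, adjusted p = 0.343, edgeR). Its groups overlapped, and pseudogenes named after it held 13.0% as many counts as the gene.

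UQCC2, an assembly factor for the cytochrome b subunit of complex III, had the smallest p-value of any member. It was at 74.2, 81.2 and 78.7 CPM in DMSO and 147, 135 and 132 CPM after FT671 (0.82 ± 0.08, adjusted p = 1.87e-06, edgeR). The gene (ENSG00000137288, chromosome 6, 33694293 to 33711727, minus strand) shares 21.9% of its exon bases with ITPR3 on the opposite strand, which rose by 0.94 (adjusted p = 2.95e-07, edgeR). The strand setting of the counting is not given in the sources used here. UQCC1, which works with UQCC2, did not pass at 0.10, and neither did UQCC4 (−0.09) or UQCC5 (0.29). UQCC6 was at 52.6, 55.0 and 70.0 CPM in DMSO and 48.9, 49.99 and 49.3 CPM after FT671, below every control (−0.24 ± 0.11, adjusted p = 0.0808, edgeR), and was called lower in 4 alternatives, such as the fits without a filter and without DMSO replicate 1. The gene shares 18.2% of its exon bases with HSP90B1 on the opposite strand, which was also lower (−0.28, adjusted p = 0.0236, edgeR). UQCC3 was at 38.0, 36.4 and 30.6 CPM in DMSO and 30.1, 32.2 and 29.6 CPM after FT671, with overlap (−0.21 ± 0.11, adjusted p = 0.124, edgeR). UQCC3 shares 40.8% of its exon bases with LBHD1 (0.56) and UQCC5 14.2% with NT5DC2 (−1.86), both on the opposite strand. All these UQCC genes encode assembly factors of complex III. CYCS, the gene for cytochrome c, rose from 112, 117 and 125 CPM to 158, 167 and 184 CPM without overlap (0.53 ± 0.08, adjusted p = 8.72e-05, edgeR). The 42 pseudogenes named after CYCS together held 0.645% as many counts as CYCS.

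In complex IV, 8 of 11 tested subunits (72.7%) and 4 of 8 tested assembly factors (50%) rose, beside 23.6% of all genes tested. The medians were 0.45 for the subunits and 0.33 for the assembly factors. COX4I1 and COX5A, which contact the mitochondrially encoded catalytic core, rose by 0.26 ± 0.10 (adjusted p = 0.0419, edgeR) and 0.30 ± 0.08 (adjusted p = 0.00904, edgeR), and the call of COX5A was lost without FT671 replicate 2. COX4I1 was at 435, 437 and 330 CPM in DMSO and 513, 461 and 467 CPM after FT671. Its call was lost with library totals alone and when DMSO replicate 3 or any 1 FT671 library was left out. COX5B, which binds zinc, rose from 306, 329 and 216 CPM to 489, 433 and 388 CPM (0.61 ± 0.13). COX7C was the other member past 1e-05. This small membrane subunit (ENSG00000127184, chromosome 5, 86617928 to 86620962, plus strand) was at 224, 213 and 213 CPM in DMSO and 310, 360 and 342 CPM after FT671 (0.64 ± 0.07, adjusted p = 9.04e-06, edgeR). COX6A1 went from 59.8, 55.3 and 47.2 CPM to 86.8, 88.3 and 96.3 CPM (0.73 ± 0.10, adjusted p = 2.97e-05, edgeR), the largest rise in the complex. COX7B went from 123, 95.9 and 106 CPM to 182, 163 and 184 CPM (0.70 ± 0.09, adjusted p = 3.44e-05, edgeR). In both genes every treated library lay above every control. COX6B1 rose by 0.65 and COX7A2 by 0.45. COX6C was at 90.3, 86.5 and 73.3 CPM in DMSO and 85.0, 94.0 and 95.6 CPM after FT671, with overlap (0.13 ± 0.09, adjusted p = 0.256, edgeR). COX8A was at 97.5, 109 and 74.6 CPM in DMSO and 141, 119 and 95.3 CPM after FT671, with overlap (0.31 ± 0.14, adjusted p = 0.0801, edgeR). It was called higher in 9 of the 19 alternatives, among them DESeq2's Wald test, the GC correction and thinning. COX7A2L, counted as a subunit by its symbol, had the lowest value at −0.07.

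The complex IV assembly factors that rose have different tasks. COX10, which farnesylates heme b as the first step to heme a, rose from 52.0, 54.8 and 58.4 CPM to 69.7, 72.6 and 75.3 CPM (0.41 ± 0.09, adjusted p = 0.00134, edgeR). COX15, which acts after COX10 in the same pathway, was at 26.0, 23.3 and 31.9 CPM in DMSO and 23.9, 29.8 and 30.6 CPM after FT671, with overlap (0.10 ± 0.13, adjusted p = 0.576, edgeR). COX18, an insertase for a mitochondrially encoded subunit, rose by 0.39, a call that was lost without a filter, after thinning to the smallest total and without DMSO replicate 2, FT671 replicate 1 or FT671 replicate 2. COX19 went from 12.4, 14.2 and 16.0 CPM to 18.2, 24.8 and 22.3 CPM, without overlap (0.66 ± 0.14, adjusted p = 0.00170, edgeR), and COX20 rose by 0.62. COX20 shares 76.6% of its exon bases with HNRNPU on the opposite strand, which had 4665 to 12790 counts per library and rose by 0.25. The copper chaperone COX17 was at 21.3, 18.6 and 13.3 CPM in DMSO and 15.9, 20.9 and 16.5 CPM after FT671, with overlap (−0.05 ± 0.16, adjusted p = 0.817, edgeR). COX11 (0.13), which also acts in copper delivery, and the translation-linked factor COX14 (0.26) did not pass.

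Complex V had the highest share of genes that rose, with 15 of 17 tested subunits (88.2%, beside 23.6% of all genes tested) and a median of 0.58. All 6 genes of the catalytic head and the adjoining OSCP rose, by 0.24 (ATP5F1A) to 0.68 (ATP5F1E). ATP5F1B, the gene for the catalytic beta subunit (ENSG00000110955, chromosome 12, 56638175 to 56645984, minus strand), was the most abundant member. It was at 1214, 1141 and 1114 CPM in DMSO and 1620, 1637 and 1683 CPM after FT671 (0.51 ± 0.07, adjusted p = 2.75e-05, edgeR), and at 517 CPM per kb of exon it also led the members per length in DMSO. The alpha subunit gene ATP5F1A moved less, from 349, 334 and 343 CPM to 400, 401 and 410 CPM (0.24 ± 0.06, adjusted p = 0.00661, edgeR), a small shift that exceeded the spread of either group. ATP5F1C, the gamma subunit of the central shaft, rose by 0.61 ± 0.07 (adjusted p = 1.57e-05, edgeR), from 151, 147 and 164 CPM to 219, 240 and 243 CPM. ATP5F1D (0.29) passed with overlapping groups. It lost its call without 4 of the 6 libraries in turn, with library totals alone and with the gene length correction. ATP5PO, which encodes the OSCP, rose by 0.63.

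The 5 small membrane subunits of complex V all rose, with a median of 0.68, where 23.6% of all genes tested rose. ATP5MK had the largest rise in the complex, from 48.7, 36.8 and 44.2 CPM to 69.3, 69.8 and 85.4 CPM (0.80 ± 0.12, adjusted p = 8.02e-05, edgeR). ATP5MF went from 109, 135 and 90.1 CPM to 229, 187 and 160 CPM (0.76 ± 0.14, adjusted p = 4.16e-04, edgeR). ATP5MG went from 10.8, 12.1 and 12.7 CPM to 18.6, 23.9 and 15.2 CPM (0.68 ± 0.17, adjusted p = 0.00352, edgeR). None of the 3 genes had overlapping groups. ATP5ME rose by 0.58 and ATP5MJ by 0.50. ATP5ME shares 61.3% of its exon bases with MYL5 on the opposite strand, which rose by 0.55. Of the peripheral stalk genes, ATP5PD (0.55) and ATP5PF (0.67) rose, whereas ATP5PB was at 254, 278 and 250 CPM in DMSO and 279, 284 and 298 CPM after FT671 (0.14 ± 0.07, adjusted p = 0.119, edgeR). For ATP5PB the treated libraries lay above the controls by less than the spread within DMSO. ATP5PF shares 34.4% of its exon bases with GABPA on the opposite strand, which did not pass (−0.07). ATP5IF1, the inhibitor that blocks the enzyme from running in reverse, rose by 0.23 ± 0.08 (adjusted p = 0.0337, edgeR), from 234, 269 and 215 CPM to 283, 276 and 283 CPM, a call that was lost without DMSO replicate 1 and without each FT671 library in turn. The readthrough transcript ATP5MF-PTCD1 was at 4.07, 4.38 and 3.13 CPM in DMSO and 3.10, 4.68 and 4.10 CPM after FT671, with overlap (0.02 ± 0.23, adjusted p = 0.962, edgeR), and shares 83.3% of its exon bases with PTCD1.

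**Figure D4:**
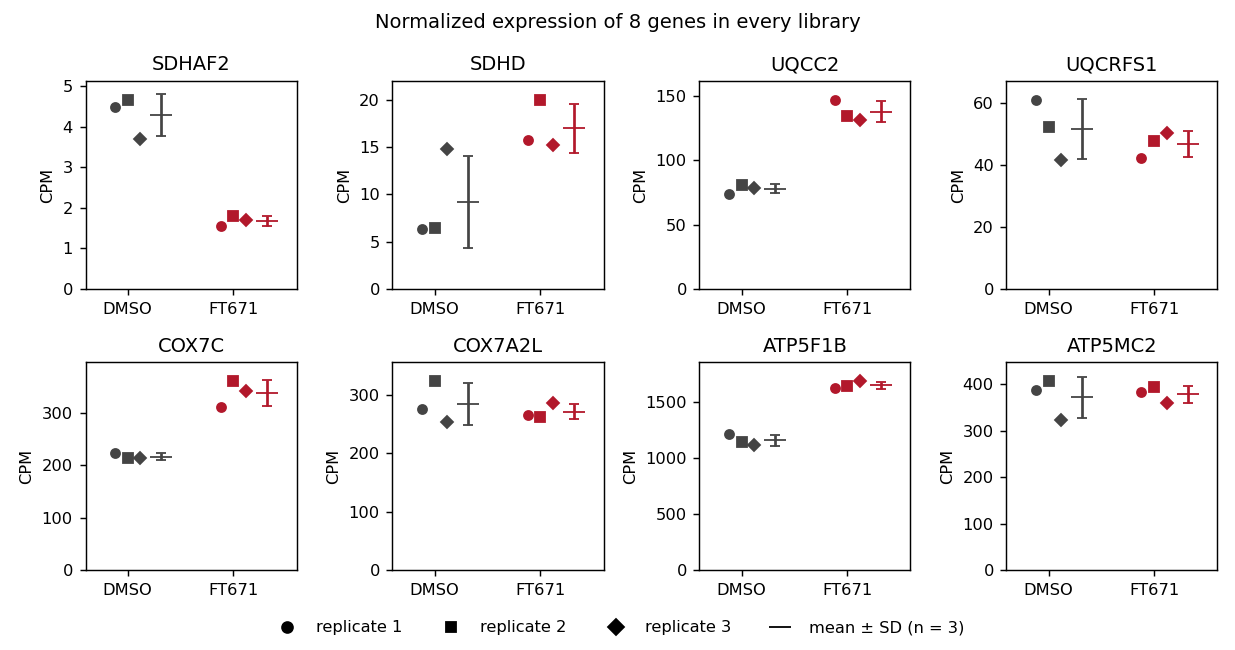
CPM (y axis, from 0) in each of the 6 libraries for 8 genes, with symbols for replicates and a bar for the mean ± SD (n = 3). UQCC2, COX7C and ATP5F1B separate by group and SDHAF2 falls, SDHD has 1 control at 14.7 CPM near the treated libraries, and UQCRFS1, COX7A2L and ATP5MC2 overlap between the groups.

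Some paralogs that serve the same position differed in their fold changes. The c ring of ATP synthase is made of 1 mature protein that ATP5MC1, ATP5MC2 and ATP5MC3 all encode. ATP5MC2 (ENSG00000135390, chromosome 12, 53632726 to 53677408, minus strand) did not pass the test, with 387, 406 and 322 CPM in DMSO and 382, 394 and 358 CPM after FT671 (0.02 ± 0.09, adjusted p = 0.857, edgeR). ATP5MC3 rose from 367, 395 and 286 CPM to 596, 515 and 516 CPM (0.63 ± 0.10, adjusted p = 2.09e-04, edgeR), and ATP5MC1 from 62.0, 59.4 and 49.6 CPM to 86.6, 80.4 and 81.5 CPM (0.52 ± 0.09, adjusted p = 4.07e-04, edgeR). Per kb of exon, ATP5MC2 made up 46.1% ± 0.876 of the 3 genes' expression in DMSO and 36.2% ± 1.92 after FT671 (SD, n = 3), and ATP5MC3 went from 43.4% ± 1.23 to 52.0% ± 1.91. ATP5MC1 held 10.6% ± 0.526 and 11.8% ± 0.318. The log2 ratio of ATP5MC2 to ATP5MC3 thus fell by 0.61, from between 0.03 and 0.16 in DMSO to between −0.65 and −0.39, without overlap (exact permutation test, two-sided, p = 0.1, adjusted p = 0.125 over 5 pairs). The ratio of ATP5MC1 to ATP5MC2 rose by 0.51 (exact permutation p = 0.1), and that of ATP5MC1 to ATP5MC3 differed by −0.10 with overlap (exact permutation p = 0.3).

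COX7A2 and COX7A2L are related genes, of which COX7A2 encodes a complex IV subunit and COX7A2L a protein that joins complex III to complex IV. By its symbol, COX7A2L is counted here among the complex IV subunits. COX7A2L (ENSG00000115944, chromosome 2, 42333546 to 42425088, minus strand) had 276, 323 and 254 CPM in DMSO and 265, 263 and 286 CPM after FT671 (−0.07 ± 0.09, adjusted p = 0.527, edgeR). COX7A2 had 127, 140 and 108 CPM and 187, 161 and 168 CPM (0.45 ± 0.09, adjusted p = 0.00126, edgeR). Their log2 ratio per kb was 0.42, 0.34 and 0.31 in DMSO and 1.04, 0.84 and 0.77 after FT671, a difference of 0.53 without overlap (exact permutation test, two-sided, p = 0.1). The log2 ratio of UQCRH to its retrocopy UQCRHL was higher by 0.42 on average after FT671. It was between 8.02 and 8.81 in DMSO and between 8.89 and 9.03 after FT671. However, UQCRHL was at 0.921 to 2.14 CPM, and the change in the ratio was 0.17 without DMSO replicate 1. With 3 against 3 libraries 0.1 is the smallest p-value this test can give, so none of the 5 ratios could pass 0.05.

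**Figure D5:**
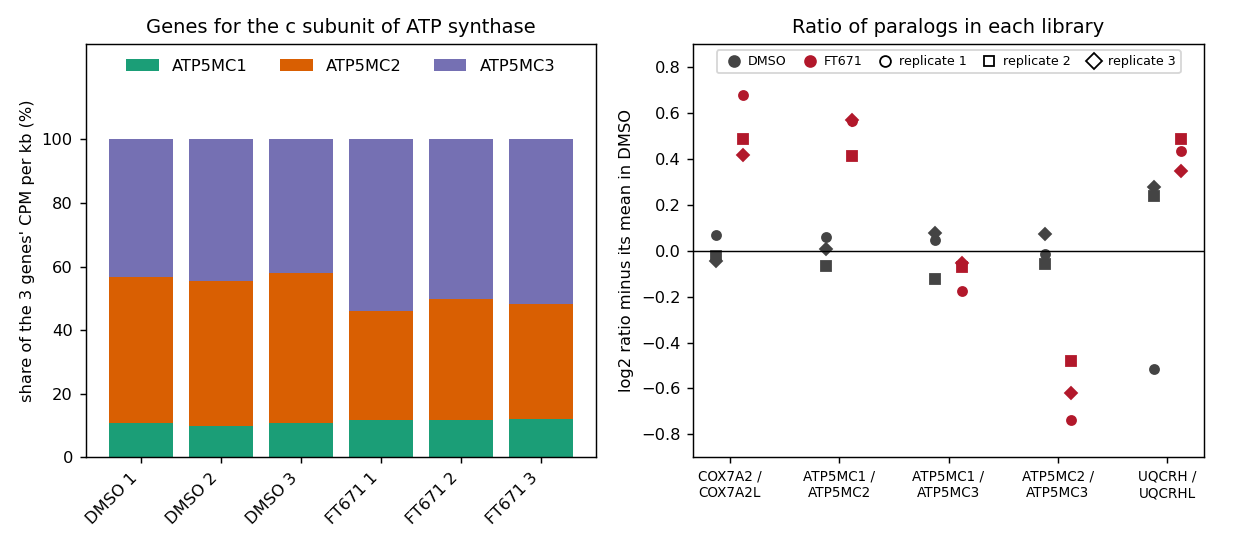
Left, share of the summed CPM per kb (y axis, %) held by ATP5MC1, ATP5MC2 and ATP5MC3 in each library; right, log2 ratio of 5 pairs of paralogs in each library minus the pair's mean in DMSO (gray DMSO, red FT671, symbols for replicates). The ATP5MC2 share is 46.1% on average in DMSO and 36.2% after FT671, and 4 of the 5 ratios separate by group, that of UQCRH to UQCRHL by a narrow gap.

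Tissue-restricted isoforms were at or near 0. COX4I2, COX6A2 and COX8C had 0 counts in all 6 libraries, which allows at most 0.207 to 0.664 CPM per library, and COX7A1 had 4, 0 and 2 counts in DMSO and 0 after FT671. COX7B2 (2, 0 and 1 counts in DMSO, 0 after FT671), COX6B2 (0, 2 and 1, then 6, 2 and 11) and ATP5MGL (a single count) were also under the filter. The ubiquitous partners COX4I1, COX6A1 and COX8A were at 401, 54.1 and 93.7 CPM on average in DMSO. COX16, an assembly factor, had 5, 7 and 3 counts in DMSO and 4, 10 and 15 after FT671, and 37.8% of its exon bases belong to the readthrough gene SYNJ2BP-COX16 as well.

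Many members share exon bases with another gene. Of 28 tested members with 5% or more of their exon bases in another gene, 15 rose and 1 fell (median 0.52), and of the 35 with less, 26 rose and 1 fell (median 0.39). Over all genes tested, 23.6% rose and 26.5% fell. Named pseudogenes exist for 35 tested members, and in 33 of these they held fewer than 5% as many counts as the gene, the exceptions being SDHA and UQCRFS1.

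Other genes of the same enzymes were compared by lists. Among 36 tested nuclear subunits of complex I, 23 rose (63.9%) and none fell, where 23.6% of all genes tested rose and 26.5% fell. Their median was 0.37, where the subunits of complexes III and IV had 0.45 each. EdgeR at an unadjusted p-value under 0.05 and DESeq2 also called 0 of the complex I subunits lower. NDUFA4, a complex IV subunit outside the naming rule, rose by 0.78 (adjusted p = 6.04e-06, edgeR). Of 30 assembly and biogenesis factors outside the rule, 11 rose (36.7%, beside 23.6% of all genes tested), such as COA1 (0.82) and COA6 (0.76). Another 6 fell (20%, beside 26.5%), such as the copper factor SCO2 (−1.16) and TIMM21 (−1.05), and 13 did not pass, with a median of 0.25 over the 30. The mitochondrially encoded subunits of complexes III to V went the other way in 5 of 6 cases. MT-CYB, the cytochrome b of complex III, was at 2361, 2040 and 1910 CPM in DMSO and 238, 215 and 252 CPM after FT671 (−3.16), MT-CO3 was lower by 2.64 on the log2 scale, and MT-CO2 (−0.50), MT-ATP6 (−0.77) and MT-ATP8 (−0.75) also fell, whereas MT-CO1 rose by 0.56. All mitochondrially encoded genes together held 2.59% to 2.82% of the counts in DMSO and 1.47% to 1.76% after FT671, and the members' counts of calls were the same when these genes were left out of the scaling.

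Of 8 tested nuclear regulators of these genes, none rose and 3 fell (37.5%, where 23.6% of all genes tested rose and 26.5% fell). EdgeR called 1 of them higher at an unadjusted p-value under 0.05, and DESeq2 called 0. NRF1 itself was at 31.6, 34.4 and 27.6 CPM in DMSO and 17.3, 20.1 and 22.4 CPM after FT671 (−0.63), without overlap. ESRRA, which encodes an estrogen-related receptor, fell by 0.61 on the log2 scale, and the coactivator gene PPARGC1B fell by 0.65. GABPA (−0.07) and TFAM (0.24, adjusted p = 0.0757, edgeR) did not pass, and PPARGC1A had 1 count in all libraries together.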

How the data were processed

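Total RNA was depleted of ribosomal RNA (KAPA RNA HyperPrep with RiboErase) and sequenced paired-end on a NextSeq500. Reads were mapped to hg38 with STAR by the authors, who deposited 1 raw read count per gene and library, without normalization. The version of STAR, the annotation release and the strand setting are not given in the sources used here. Of 60609 genes, 60295 were matched to GENCODE 44. Total counts were 14250500, 10969971 and 5320245 in DMSO replicates 1 to 3 and 4555220, 5605776 and 11437804 in FT671 replicates 1 to 3, and the limit of 3 counts covers counting error only.

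Counts were filtered with filterByExpr and compared over all 6 libraries, without covariates, by edgeR's quasi-likelihood test (edgeR 4.0.16, R 4.3.3, TMM scaling), with Benjamini-Hochberg adjustment over 13895 genes. The SE is the log2 fold change divided by the square root of F. CPM use TMM-scaled totals, and relative log2 CPM a prior count of 2. Exon length is the union of annotated exons. Paralog ratios are log2 ratios per kb with a prior of 0.5 counts, compared by exact permutation (scipy 1.17.1). Alternatives were other scalings, DESeq2 1.42.0, other filters, the replicate number as a block, corrections for length and GC content (loess, span 0.3), thinning and leaving out each library. DESeq2 at 1e-05 was added after the data were seen. On simulated counts over 13878 genes, 91.1% of 101 genes changed by 1 on the log2 scale were recovered, 54.6% of 97 changed by 0.5, with 10 false calls. The simulation gave every gene the same relative spread between replicates and changed 200 genes, where the data had 3277 called higher and 3687 lower. Its rates thus do not give the share recovered in the data.

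The members and lists were chosen with earlier results of these data known. Genes described in full are core subunits and paralogs fixed by name, the 3 highest and 3 lowest fold changes in complexes III, IV and V, and every gene that fell. Other members, shown for their role, their overlap with another gene or their p-value, were picked with their values in view. The 8 members under the filter are given by their counts.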

Additional observations from a re-analysis of the deposited data

How the results depend on the processing

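The median log2 fold change of the members lay between 0.36 and 0.46 under all alternatives, and 36 to 44 members rose at an adjusted p-value of 0.05. Calls among all genes moved too. With the GC correction, 4045 of 13895 genes and 44 members were higher, and without FT671 replicate 3, 2522 of 13315 genes and 37 members. No member changed direction after being called. Of the 43 calls, 34 (33 higher, 1 lower) were kept in every one of the 19 alternatives in which the gene was tested, SDHAF2 being left out by the filter of at least 10 counts. At 1e-05, edgeR called 2 members higher (1 subunit, 1 assembly factor) and 0 lower, and DESeq2, added after the data were seen, called 21 higher (19 subunits, 1 assembly factor) and 0 lower. The count of members that fell was 1, an assembly factor, with at least 10 counts in every library and after thinning to the smallest total. Leaving out 1 library at a time gave 36 to 41 members higher and 1 to 4 lower, with 31 to 34 subunits higher and 0 to 1 lower, and 4 to 7 assembly factors higher and 1 to 3 lower. These fits tested 62 to 65 members. Over all genes they called 2522 of 13315 (without FT671 replicate 3) to 3830 of 14909 (without DMSO replicate 3) higher, and 2973 to 4100 lower in the same 2 fits. For these counts, the cause was not tested.

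In their deviations from the group means, DMSO and FT671 libraries of the same number correlated at 0.115, −0.0605 and 0.14. Those of different numbers correlated at −0.168 to 0.125, so the numbers showed no clear pairing. With 3 libraries per group, these values cannot exclude it. With the replicate block, 42 members rose and 3 fell, with a median of 0.41, and the calls it added were COX8A (higher) and UQCC6 (lower). Ratios of paralogs kept their sign, but 3 libraries per group cannot reach 0.05. Genes under about 10 counts per library, such as UQCRHL in the shallow libraries, are limited by depth.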
